A study of Mus musculus with 13 samples.

Results

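The regions described here are stretches of the mouse autosomes where CpG methylation was low in female induced pluripotent stem cells (iPSC) labelled XaXa, with both X chromosomes active. The same stretches were high in female iPSC labelled XO, with a single X, and in male (XY) iPSC. Autosomes were divided into windows of 1 kb, called tiles. A tile was eligible when it had at least 3 CpGs and 20 reads in each XaXa library and in the pooled XO and the pooled XY libraries. Eligible tiles numbered 135188 of the 539151 autosomal tiles with any read. Of these, 63255 were at 70% or more in pooled XO and pooled XY iPSC, and are called high tiles. A total of 104 of them, or 0.164%, were also at 25% or less in both XaXa libraries, and are the member tiles. The opposite pattern, 25% or less in XO and XY iPSC and 70% or more in both XaXa libraries, was met by 0 tiles.

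The 13 libraries were 2 XaXa, 4 XO and 3 XY iPSC libraries, 1 library each of male SSEA1 positive and SSEA1 negative cells, and 2 libraries of male mouse embryonic fibroblasts (MEF). SSEA1 is a surface antigen of mouse pluripotent cells, and these cells were taken during reprogramming of fibroblasts to iPSC. Methylation was read by reduced representation bisulfite sequencing (RRBS), which sequences CpG-rich fragments cut at fixed enzyme sites, so only part of the CpGs in a tile is seen. The iPSC were freed of feeder cells before DNA isolation. The labels give no strain, passage or age, and do not say whether libraries came from separate lines or cultures. Total CpG reads ranged from 4784488 in XO 9 to 143148634 in XaXa 8.

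In mouse pluripotent cells, 2 active X chromosomes go with a genome-wide loss of CpG methylation, and cells that lose an X regain methylation. DNA methyltransferases add the methyl group to cytosine, and maintenance copies it to the new strand when DNA replicates. Most CpGs outside promoters and CpG islands are methylated in fibroblasts. Imprinted control regions and some repeats hold their methylation differently from the bulk of the genome, so single regions can stand below or above the genome-wide level. In DNA from many cells, fewer methylated cells and fewer methylated alleles per cell cannot be told apart.

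Libraries did not all carry the X depth of their label. X reads relative to autosomal reads, set against the XY iPSC mean, were 1.45 and 1.38 in XaXa 7 and XaXa 8. They were 1.34, 1.21, 1.02 and 1.38 in XO 3, XO 5, XO 6 and XO 9, so that only XO 6 was near the XY libraries. The library labelled MEF 5 had an X depth of 1.28 and Y reads at 0.0262% of autosomal reads, against 0.897 and 0.0690% in MEF 4. MEF values are therefore given for each library, and XO values for each library where a single tile is described in full.

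The gene Tmem267 lies at the member tile with most CpGs read, chr13:120277001-120278000 in mm9, and this was the only member that placed RefSeq promoter windows overlapped, those of Tmem267 and of the long noncoding RNA gene 3110070M22Rik. The Tmem267 window, matched to the tile through its CpGs, is chr13:119488223-119488522 on the plus strand of GRCm38.p6. It is shown because the libraries read different CpGs of it, and capitals mark the 12 of its 50 CpGs with reads in an XaXa library, all of them in XaXa 8.

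Tmem267 promoter window: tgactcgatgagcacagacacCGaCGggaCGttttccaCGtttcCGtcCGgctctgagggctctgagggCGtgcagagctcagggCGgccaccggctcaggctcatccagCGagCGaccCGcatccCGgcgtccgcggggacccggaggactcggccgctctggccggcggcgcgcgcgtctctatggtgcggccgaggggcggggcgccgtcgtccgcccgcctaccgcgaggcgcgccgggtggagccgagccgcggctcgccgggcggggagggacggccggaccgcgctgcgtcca

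At the first 6 capitalised CpGs XaXa 8 had 0 methylated reads, with 50 to 59 reads at each. At these CpGs XO 6 had 4 to 9 methylated reads of 16 or 17, and the pooled XY libraries had 0 of 3 at each. The high level of the tile in XO and XY came from CpGs further downstream. At the CpG at 120277556, 262 of 370 reads were methylated in XO 6 and 116 of 201 in pooled XY, while XaXa 7 had 0 of 10 and XaXa 8 had 0 of 40. XO 3 with 0 of 5 and XO 5 with 0 of 13 also had no methylated read at this CpG. Over the whole tile the level was 16.7% of 24 reads in XaXa 7 and 1.45% of 482 reads in XaXa 8. It was 0%, 16.9%, 76.8% and 84.1% in XO 3, XO 5, XO 6 and XO 9, and 79.1%, 75% and 78.5% in XY 1, XY 2 and XY 4. The tile level was low in both XaXa libraries, XO 3 and XO 5 and high in the other iPSC libraries, but these sets of libraries read mostly different CpGs. At the 4 CpGs from 120277879 to 120277914, where XO 6 had 1178 to 1193 reads each, XaXa 7 had 1 methylated read of 1 at each. XaXa 8 had 0 to 2 methylated reads of 4, and XO 5 had 1 to 4 of 4 or 5. XO 6 held 16231 reads in this tile, against 26 in XO 3 and 71 in XO 5, and a median of 272.5 for XO 6 over the members. SSEA1 positive and SSEA1 negative cells were at 66.1% and 77.0%, and MEF 4 and MEF 5 at 80.0% and 74.5%.

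The members sat at the edge of a continuous distribution. The median member level was 20.8% in XaXa 7 and 20.4% in XaXa 8, against 56.0% and 46.4% over all high tiles. The lowest members were at 3.03% in XaXa 7 and 1.45% in XaXa 8. Only 28 members were at 20% or less in both XaXa libraries and 2 at 10% or less in both, while 318 further high tiles lay at 30% or less in both without being members. Just inside the 25% limit, chr1:12259001-12260000 was at 25% and 23.5% in XaXa 7 and XaXa 8. Just outside it, chr11:81977001-81978000 was at 25.1% and 24.2%. At the 70% limit, chr3:117238001-117239000 was inside with 70% in pooled XO, and chr4:148847001-148848000 was outside with 69.9%. These values chose the members and are given as a description.

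**Figure D1:**
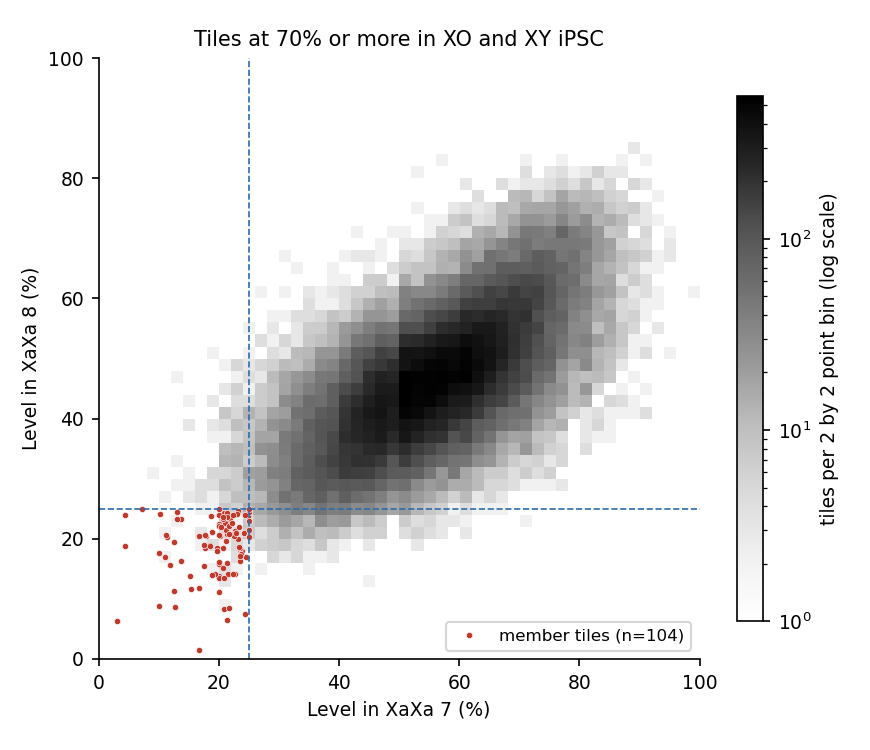
Methylation level (%) of the 63255 tiles at 70% or more in pooled XO and XY iPSC, in XaXa 7 (x axis) and XaXa 8 (y axis); grey shows tiles per bin of 2 by 2 points on a log scale, red points are the 104 members and dashed lines the 25% limit. The members are the lower left edge of a single cloud centred near 56.0% and 46.4%.

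The same low level was followed in an XaXa library that did not take part in the choice. When tiles were chosen on XaXa 8 alone, 739 of them had the depth in XaXa 7, where their median was 36.4%, against 56.0% for all high tiles. When tiles were chosen on XaXa 7 alone, the 426 tiles had a median of 31.2% in XaXa 8, against 46.4% for all high tiles. In the left-out library 14.1% of the 739 and 24.4% of the 426 were at 25% or less, beside 0.673% and 1.17% of high tiles. Both shares count the same 104 members, which the full rule defined, so they are no separate support. In the remaining library, tiles low in either XaXa library had a median below that of all high tiles, themselves included. Most did not reach 25% there. Members were also lower in the pools, with medians of 73.9% in XO and 76.9% in XY, against 82.2% and 82.5% in high tiles. The tiles compared were not matched for these levels, so the lower medians in the left-out library are a description. Tiles are not replicates, so no p-value is given.

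Intervals for the reads of single tiles were wide. The upper bound of the 95% Wilson interval reached 46.9% in XaXa 7 and 40.2% in XaXa 8, and it covers counting error only. Reads that cover more than 1 CpG enter the sum more than once, which makes the intervals too narrow. Median reads per member were 46.5 in XaXa 7 and 396.5 in XaXa 8, against 66 and 443 in high tiles. Members made up 2.68 per 1000 high tiles with 20 to 49 reads in XaXa 7, and 1.33, 1.01 and 0.617 per 1000 with 50 to 99, 100 to 199 and 200 to 499 reads. Of the 101 high tiles with 500 or more reads in XaXa 7, 0 were members. By reads in XaXa 8 the share was 6.93 and 3.28 per 1000 at 20 to 49 and 50 to 99 reads, and 1.43, 1.74, 1.17 and 2.04 per 1000 from 100, from 200, from 500 and from 1000 reads upwards. The share of members thus fell with depth in XaXa 7, and in XaXa 8 it was highest below 100 reads with no steady fall above. The part of depth in the choice was not tested. A total of 17 members had 100 or more reads in both XaXa libraries.

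CpG density was described by the CpGs read in any library. The median was 8 CpGs per member, with a range from 3 to 98, against 7 per high tile. The share of members was 1.40 per 1000 high tiles with 3 or 4 CpGs, 1.47 with 5 to 9, 2 with 10 to 19 and 2.74 with 20 to 39. Of the 1062 CpGs in members, 28.3% lay in CCGG, the sequence context at which RRBS fragments are commonly cut, against 34.0% in high tiles. At single CpGs with 10 or more reads in XaXa 7, XaXa 8, pooled XO and pooled XY, 151 of 229 were at 25% or less in both XaXa libraries and 4 were above 50% in either. The XaXa levels chose the members, so these counts are a description of the CpGs deep enough to be read singly.

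**Figure D2:**
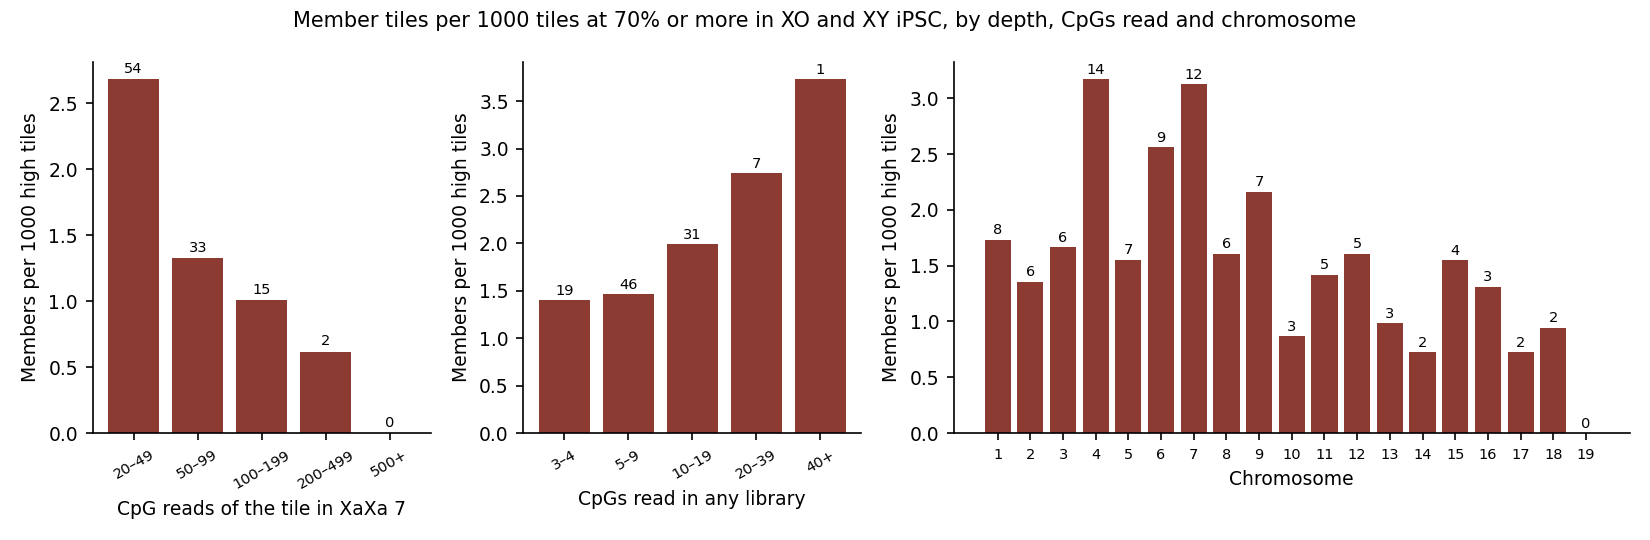
Members per 1000 high tiles (y axis) by reads of the tile in XaXa 7, by CpGs read in any library and by chromosome (x axes); numbers over bars count members. The share is 2.68 at 20 to 49 reads and 0.617 at 200 to 499 reads, 2.74 at 20 to 39 CpGs, and 3.17 and 3.12 on chromosomes 4 and 7.

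Members lay on 18 of the 19 autosomes and were mostly far from each other. Chromosome 4 held 14 and chromosome 7 held 12, or 3.17 and 3.12 per 1000 high tiles, and chromosome 19 held 0 of its 1682 high tiles. On chromosome 4, 10 members lay beyond 100 Mb, which is 0.433% of the 2309 high tiles there, against 0.164% in all. The border of 100 Mb was set for this chromosome alone, and the adjacent tiles named below are among these 10. The share is therefore a description. The median gap between members of a chromosome was 11396.5 kb, 1 pair was adjacent, and 4 pairs lay within 1 Mb. The adjacent tiles, chr4:155509001-155510000 and chr4:155510001-155511000, were at 21.4% and 12.7% in XaXa 7 and at 15.9% and 8.57% in XaXa 8.

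High tiles near members were not low in both XaXa libraries by definition, because members were left out of the neighbours. The extent of the low level was therefore not measured. The 62 other high tiles from 1 to 5 kb away had medians of 52.2% in XaXa 7 and 43.1% in XaXa 8. The 142 high tiles from 6 to 20 kb away had medians of 56.9% and 48.4%, against 56.0% and 46.4% over the 63151 high tiles that were not members. The neighbours within 5 kb, high tiles by definition, had medians of 82.1% in pooled XO and 82.4% in pooled XY, against 82.2% and 82.5% over all high tiles that were not members.

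**Figure D3:**
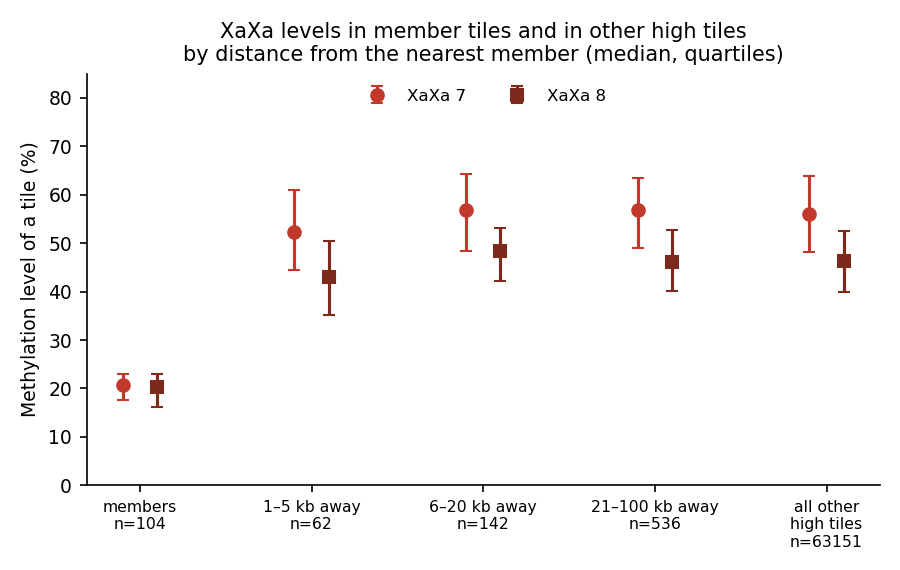
XaXa 7 and XaXa 8 levels (%, y axis) of members and of other high tiles by distance from the nearest member (x axis); points are medians and bars quartiles. Medians are 20.8% and 20.4% in members, and 52.2% and 43.1% in high tiles 1 to 5 kb away, from which members are left out.

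Genes were assigned by matching RefSeq promoter windows to the tables through their CpGs, which placed 12879 of 32851 windows. Of the 102 members on chromosomes with placed windows, 4 lay within 1 kb of a placed gene start, or 3.92%, against 0.777% of high tiles, and 7 lay within 5 kb, or 6.86% against 4.12%. A total of 28 members, or 27.5%, fell inside the RefSeq span of a placed protein-coding gene, against 25.9% of high tiles. Whether they were exonic or intronic was not determined, because the annotation is of another build. The members near starts besides Tmem267 were 586 bases downstream of the start of Trim52 and 992 bases downstream of that of Il3ra, the alpha chain of the interleukin-3 receptor. Another was 108 bases downstream of the start of the long noncoding RNA gene Gm16499. Members inside genes included those in Lef1, a transcription factor of Wnt signalling, in Mef2a, a transcription factor of muscle, and in Nod2, a sensor of bacterial cell wall. Others were in Shank3, a scaffold protein of synapses, in Grm7, a glutamate receptor, and in Col16a1, a collagen chain.

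Several members within genes had low levels in both XaXa libraries on few reads. The tile in Nod2, chr8:91189001-91190000, was at 10% of 20 reads in XaXa 7 and 8.85% of 260 reads in XaXa 8. It was at 36% of 25 reads in XO 5 and 77.5% of 120 reads in XO 6, with 15 and 5 reads in XO 3 and XO 9, and at 85.5% of 55 reads in XY 4. The tile in Lef1, chr3:130918001-130919000, was at 11.1% of 27 reads in XaXa 7 and 17.0% of 141 reads in XaXa 8. It was at 87.0%, 76.7% and 62.9% in XO 3, XO 5 and XO 6 and at 78.1% in XY 1, while XO 9, XY 2 and XY 4 had only 3, 14 and 13 reads there. The tile in Trim52, chr14:106506001-106507000, was at 20.8% and 13.4% in XaXa 7 and XaXa 8, against 55.2%, 47.0% and 80.3% in XO 3, XO 5 and XO 6, with only 7 reads in XO 9.

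The deepest members had more than 100 reads in both XaXa libraries. The member with most reads in both XaXa libraries, chr5:32726001-32727000, lay 34343 bases upstream of Ppp1cb, which encodes a catalytic subunit of protein phosphatase 1. It was at 21.6% of 499 reads in XaXa 7 and 22.6% of 2794 reads in XaXa 8. XO 3, XO 5, XO 6 and XO 9 were at 68.9%, 75.7%, 75.1% and 53.8%, and XY 1, XY 2 and XY 4 at 69.7%, 77.9% and 79.4%. The tile chr6:96115001-96116000, 446161 bases from the nearest placed start, was at 24.9% and 23.9% in XaXa 7 and XaXa 8. It was at 83.6%, 66.0%, 77.9% and 83.7% in XO 3, XO 5, XO 6 and XO 9 and at 78.5%, 83.2% and 84.7% in XY 1, XY 2 and XY 4. The tile chr6:115298001-115299000 lay 12162 bases upstream of Pparg, which encodes the nuclear receptor that drives fat cell formation. It was at 21.2% and 21.5% in XaXa 7 and XaXa 8, against 78.6%, 76.2%, 68.4% and 60% in XO 3, XO 5, XO 6 and XO 9 and 64.2%, 68.6% and 78.8% in XY 1, XY 2 and XY 4. The tile within Itsn2, an endocytosis scaffold, at chr12:4714001-4715000 was at 23.6% and 18.5% in XaXa 7 and XaXa 8. It lay between 61.2% and 72.9% in the XO libraries and between 75.3% and 80.8% in the XY libraries.

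**Figure D4:**
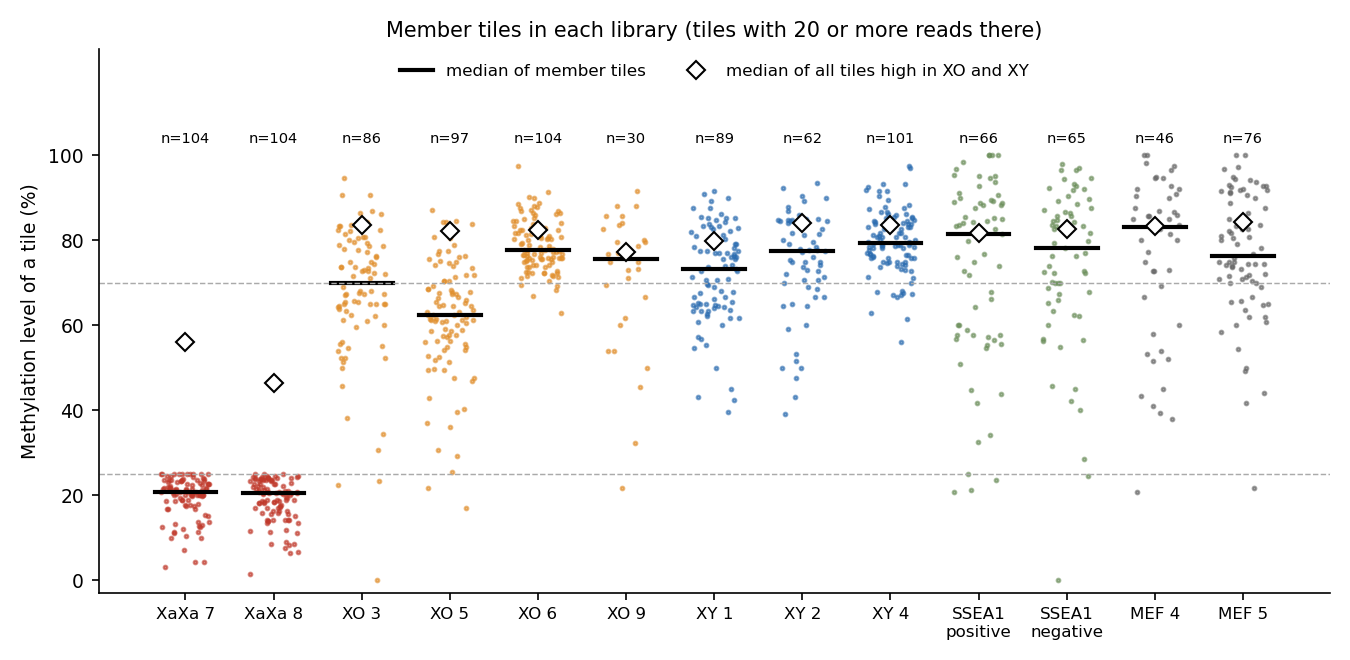
Level (%, y axis) of each member in each library (x axis) with 20 or more reads there; bars are member medians, diamonds the medians of all high tiles, and dashed lines the 25% and 70% limits. Member medians are 62.5% in XO 5 and 77.8% in XO 6, and 83.2% and 76.3% in MEF 4 and MEF 5.

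Libraries pooled as XO differed among themselves at the members. Member medians were 70%, 62.5%, 77.8% and 75.6% in XO 3, XO 5, XO 6 and XO 9, against 83.7%, 82.2%, 82.5% and 77.3% over high tiles. In XY 1, XY 2 and XY 4 they were 73.3%, 77.4% and 79.4%, against 79.8%, 84.1% and 83.7%. XO 6 supplied a median of 67.3% of the pooled XO reads of a member, and 66.1% in high tiles. At least 1 XO library with 20 or more reads was below 50% in 19 members, or 18.3%, against 0.809% of high tiles, while every XO and XY library read was at 70% or more in 13 members, or 12.5%, against 66.3%. These levels entered the choice through the pools and are given as a description. Without XO 6 the same rule gave 52 members, of which 37 were among the 104, and with equal weight for each library it gave 51, of which 40 were among the 104.

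In 7 of the 86 members with 20 or more reads in each of XO 3, XO 5 and XO 6, both XO 3 and XO 5 were below 50% while XO 6 was at 70% or more. The same held for 11 of 58436 high tiles, the 7 members included. The clearest was chr7:70948001-70949000, the member with the lowest mean level over XaXa 7 and XaXa 8. It was at 3.03% of 99 reads in XaXa 7 and 6.25% of 640 reads in XaXa 8. XO 3 and XO 5 were at 22.4% and 25.5%, while XO 6 and XO 9 were at 90.1% and 91.7%. XY 1, XY 2 and XY 4 were at 91.7%, 92.4% and 56.2%. SSEA1 positive and negative cells were at 89.5% and 91.9%, and MEF 4 and MEF 5 at 92.1% and 60%. XaXa 7, XaXa 8, XO 3 and XO 5 were thus the low libraries, the same as for the level of the Tmem267 tile. Both tiles are among the 7 members counted for this order, so the order is a description. XO 9 was high at both tiles, but at 21.7% of 23 reads in the member in Galnt10, chr11:57484001-57485000. Any link of these levels to X depth was not tested.

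The adjacent chromosome 4 tiles met the same condition. Tiles in this paragraph with XO 3 and XO 5 below 50% and XO 6 at 70% or more were picked for it. Their low XaXa levels were set by the rule, so this order is a description. In chr4:155509001-155510000, XO 3 and XO 5 were at 23.3% and 29.2%, and XO 6 and XO 9 at 91.4% and 73.3%, the last from 15 reads. In the tile beside it, chr4:155510001-155511000, XO 3 and XO 5 were at 34.3% and 37.0%, XO 6 and XO 9 at 90.3% and 79.6%, and the XY libraries between 81.2% and 88.2%. The tile chr8:47004001-47005000 was at 19.7% and 18.0% in XaXa 7 and XaXa 8, at 30.7% and 49.5% in XO 3 and XO 5, and at 81.4% and 88.0% in XO 6 and XO 9. In some members XY libraries were low as well. At chr17:87534001-87535000, XaXa 7 and XaXa 8 were at 18.8% and 14.1%, XO 3, XO 5, XO 6 and XO 9 at 53.8%, 30.7%, 85% and 73.1%, while XY 1 and XY 2 were at 42.3% and 43.2% and XY 4 was at 91.9%. At chr4:113712001-113713000, XaXa 7 and XaXa 8 were at 22.5% and 20.4%, and XO 3, XO 5, XO 6 and XO 9 at 38.1%, 21.7%, 77.8% and 82.6%. There XY 1 and XY 2 were at 39.5% and 39.1% and XY 4 at 74.9%. The pooled XY level of 70.1% came from XY 4, which held 422 of the XY reads.

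**Figure D5:**
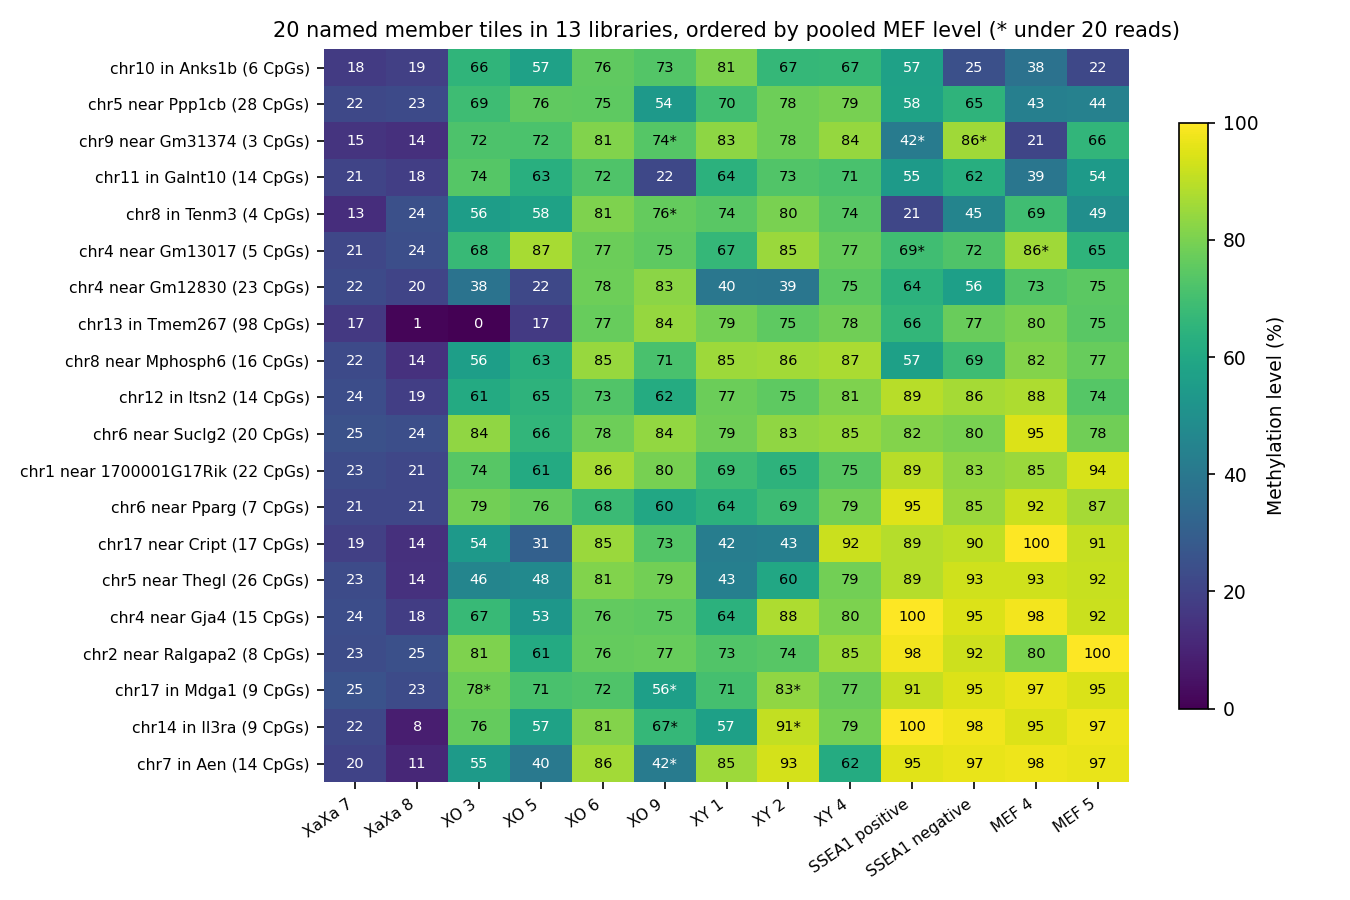
Methylation level (%, colour and printed number) of 20 named members (rows, with the gene that holds the tile or the nearest placed gene start) in the 13 libraries (columns); asterisks mark fewer than 20 reads. The XaXa columns are low throughout, XO 3 and XO 5 are low in several rows where XO 6 is high, and the Anks1b row is low in MEF 5, at 21.6%.

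The difference of XO from XY iPSC was fitted in all tiles with enough reads in the XO, XY and MEF libraries. The rule held both pools of the members at 70% or more, which limits their difference, so the counts below are a description of the members and nothing is read from them. Of the 104 members, 67 could be fitted, 21 of them with a library dropped for having under 10 reads. The quasi-binomial fit called 0 of these 67 members, where a call needed 10 points or more and an adjusted p under 0.05. It called 0.311% of all 105694 fitted tiles as higher and 0.0445% as lower in XO iPSC, and 0.00418% and 0.0146% of fitted high tiles. Among members, 2 had an unadjusted p under 0.05, or 2.99%, against 12.2% of all fitted tiles and 4.97% of fitted high tiles. Limma on log2 ratios called 0 members, with 1 under 0.05, and 0 of all 105694 tiles, with 5720 under 0.05. The median XO minus XY difference was -2.27 points in fitted members and 0.48 points in all fitted tiles. Without XO 6, 0 of 66 members were called higher and 2 lower in XO iPSC, beside 153 higher and 26 lower of all 104943 tiles. As the labels name no separate cultures, the p-values describe the spread among these libraries alone.

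Before reprogramming the members were mostly methylated. In the 83 members with 20 or more pooled MEF reads the median was 79.5%, and 61 of them, or 73.5%, were at 70% or more. High tiles had a median of 84.0%, with 83.9% of them at 70% or more. By library the member median was 83.2% in MEF 4 (46 tiles) and 76.3% in MEF 5 (76 tiles), against 83.3% and 84.3% over high tiles. The member median thus lay close to the high-tile median in MEF 4 and was lower than it in MEF 5. Members with the highest MEF levels included the tile in Aen, a nuclease of the p53 response, at 97.6% and 96.8% in MEF 4 and MEF 5. The tile in Il3ra was at 94.6% and 97.3% in MEF 4 and MEF 5, and at 100% and 98.0% in SSEA1 positive and negative cells. In XaXa 7 and XaXa 8 the Aen tile was at 20% and 11.1%, and in XO 3, XO 5 and XO 6 at 54.6%, 40.4% and 86.3%, with 12 reads in XO 9. The Il3ra tile was at 21.7% and 8.47% in XaXa 7 and XaXa 8 and at 76.2%, 57.4% and 81.3% in XO 3, XO 5 and XO 6, with 6 reads in XO 9.

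The rule held the pooled XY level of every member high, while MEF levels took no part in the choice. A member low in MEF was therefore bound to be higher in XY iPSC, and a fall below MEF was limited. The counts and p-values of members for XY against MEF, here and below, are a description of these tiles. Of the fitted members, 3 were called higher in XY iPSC than in MEF, or 4.48%, and 2 lower, or 2.99%, with the same test. Over all fitted tiles 5.71% were called higher and 19.4% lower, and over fitted high tiles 8.81% and 4.19%. The difference between these shares was not tested. Limma on log2 ratios called 4 of the 67 members higher and 7 lower, beside 4642 higher and 20423 lower of all 105694 tiles. Without XY 4 the fit called 3 higher and 6 lower of 60 members, beside 3814 higher and 18312 lower of all 100585 tiles. In the quasi-binomial fit of all libraries, the largest called difference was in Anks1b, a synaptic ankyrin-repeat protein, at chr10:90181001-90182000. It was at 80.5%, 66.7% and 67.0% in XY 1, XY 2 and XY 4 and at 37.9% and 21.6% in MEF 4 and MEF 5, a difference of 45.9 points (limma-moderated quasi-binomial fit, adjusted p = 0.000357). No XY library overlapped the MEF libraries. SSEA1 positive cells were at 57.2% and SSEA1 negative cells at 24.5%, so the level in SSEA1 positive cells lay between MEF and XY iPSC. XaXa 7 and XaXa 8 were at 17.5% and 18.9%, and XO 3, XO 5, XO 6 and XO 9 at 65.6%, 57.3%, 75.5% and 73.3%.

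The Ppp1cb tile was 32.1 points higher in XY iPSC (adjusted p = 0.000677 in the quasi-binomial limma fit), with MEF 4 and MEF 5 at 43.3% and 44.0%. SSEA1 positive and negative cells were at 57.6% and 65.2% there. The tile chr9:46306001-46307000 was 34.7 points higher in XY iPSC (adjusted p = 0.0287 in the same fit), with 20.8% and 65.8% in MEF 4 and MEF 5. It had 24 and 38 reads there. The difference was 17.3 points without MEF 4 and 62.3 points without MEF 5, and the adjusted p was 0.230 without MEF 4, 0.102 without XY 4 and 0.0659 with only XY and MEF libraries in the fit. The tile in Mdga1, a neuronal adhesion molecule, was 18.6 points lower in XY iPSC, at 70.6%, 83.3% (18 reads) and 77.0%, against 96.7% and 94.5% in MEF 4 and MEF 5 (adjusted p = 0.00321 in the same fit). The tile chr5:77431001-77432000 upstream of Thegl was 21.3 points lower in XY iPSC (adjusted p = 0.0217 in the same fit). XY 1, XY 2 and XY 4 were at 43.1%, 60% and 78.6% there, and MEF 4 and MEF 5 at 92.8% and 91.8%. This call was lost without CpGs over 200 reads, without XY 1 and without either MEF library, with adjusted p from 0.0614 to 0.489 in the limma-moderated fit. The difference was -44.8 points without XY 4, -39.3 points on CpGs read in all 9 libraries and -13.8 points without CpGs over 200 reads. XO 3, XO 5, XO 6 and XO 9 were at 45.6%, 47.6%, 81% and 78.7% in this tile. Without MEF 5 the Anks1b and Mdga1 calls were lost too, with adjusted p of 0.134 and 0.0506 in that fit.

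The tile in Galnt10, an enzyme that starts O-linked sugar chains on proteins, was also low in fibroblasts, at 39.3% and 54.4% in MEF 4 and MEF 5. Its level in XY 1, XY 2 and XY 4 was 64.3%, 72.7% and 71.3%, a difference of 20.7 points that did not pass the test (adjusted p = 0.112 in the limma-moderated fit). SSEA1 positive and negative cells were at 54.6% and 62.5% there. XaXa 7 and XaXa 8 were at 20.6% and 18.4%, and XO 3, XO 5, XO 6 and XO 9 at 73.6%, 63.0%, 72.4% and 21.7%, and XO 9 had 23 reads there. A total of 5 members, or 6.02% of those with MEF reads, were below 50% in pooled MEF, against 3.77% of high tiles.

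SSEA1 cells had 1 library each and so no replicate check, and their member medians lay near the MEF medians. The member median was 81.5% in SSEA1 positive cells (66 tiles) and 78.1% in SSEA1 negative cells (65 tiles), against 81.8% and 82.7% over high tiles. In the 55 members with reads in MEF and both SSEA1 libraries, SSEA1 positive cells differed from MEF by a median of -3.36 points and SSEA1 negative cells by -1.23 points. Over high tiles these medians were -1.87 and -1.27 points. SSEA1 positive cells were at least 20 points below MEF in 10 of the 55 members, or 18.2%, against 7.27% of high tiles, and at least 20 points above in 2, or 3.64%, against 2.41%. SSEA1 negative cells were at least 20 points below MEF in 3 members, or 5.45%, against 5.40% of high tiles, and above in 4, or 7.27%, against 2.22%. Member tiles had a median of 32 reads in SSEA1 positive cells, against 40 in high tiles, and the part of depth in this share was not tested.

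Of the 66 members with 20 or more reads in SSEA1 positive cells, 4 were at 25% or less there, or 6.06%, against 1.71% of high tiles. In SSEA1 negative cells 2 of 65 members were at 25% or less, or 3.08%, against 1.39% of high tiles. The part of depth in these shares was not tested. At chr5:147799001-147800000 SSEA1 positive cells were at 20.7% and SSEA1 negative cells at 67.3%, against 53.8% and 79.2% in MEF 4 and MEF 5. At chr16:40437001-40438000 the levels were 25% and 45.7% in SSEA1 positive and negative cells, against 52.1% and 83.4% in MEF 4 and MEF 5. The tile in Tenm3, a teneurin that guides neuronal wiring, was at 21.3% and 45.0% in SSEA1 positive and negative cells and at 69.2% and 49.3% in MEF 4 and MEF 5. The tile in Hmcn2, chr2:31298001-31299000, was at 23.5% and 28.6% in SSEA1 positive and negative cells and at 41.7% in MEF 5, with 8 reads in MEF 4. Of the other members with SSEA1 positive cells at least 20 points below MEF, those at chr6:146634001-146635000 and chr8:37115001-37116000 are given as examples picked after their values were seen. The first was at 32.4% and 65.9% in SSEA1 positive and negative cells and at 83.7% and 74.0% in MEF 4 and MEF 5. The other was at 34.1% and 42.1% in SSEA1 positive and negative cells and at 45.1% and 69.1% in MEF 4 and MEF 5. In each of these tiles the SSEA1 positive level was below the SSEA1 negative level and below the MEF libraries with 20 or more reads. The tiles were picked for an SSEA1 positive level of 25% or less or at least 20 points below MEF, so this order is a description. SSEA1 positive cells had only 29 reads at chr5:147799001-147800000 and 34 in the Hmcn2 tile.

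At these same tiles the XY iPSC pools were at 70% or more by the rule, and XaXa 7 and XaXa 8 at 25% or less. The Tenm3 tile was at 13.1% and 24.5% in XaXa 7 and XaXa 8, at 74.3%, 80.0% and 74.0% in XY 1, XY 2 and XY 4, and at 55.6%, 57.8% and 80.6% in XO 3, XO 5 and XO 6, with 17 reads in XO 9.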

How the data were processed

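RRBS libraries of 13 mouse samples were analysed. The submitters' processing notes name the aligner BSMAP and the build mm9; for the version, trimming and filters the entry is: not given in the sources used here. Per the file headers, each deposited table gives the raw count of reads and of methylated reads at every CpG that was read. The fraction deposited by the authors, methylated over all reads, was not used. Identical RRBS reads cannot be told from PCR copies, so intervals and limits cover counting error only.

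Reads were summed over the CpGs of tiles of 1000 bases. Coordinates are those of the tables (mm9), written from 1. A library or pool level is the sum of methylated reads over the sum of all reads. Member tiles and lists were chosen with earlier results of these data known, and the XaXa, XO and XY levels chose the members, so no test of XaXa against XO or XY is given. Levels in single libraries are given at 20 or more reads unless stated.

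XO was set against XY and XY against MEF in a quasi-binomial model per tile, with 1 mean per group over XO, XY and MEF libraries with 10 or more reads. Dispersion was moderated with limma (squeezeVar) with a lower bound of 1. Deviance F tests were adjusted over the 105694 fitted tiles (Benjamini-Hochberg). The model was tested on simulated data, where it missed most changes of 20 points. For XO against XY it also gave too many unadjusted p under 0.05 in unchanged tiles. Deep libraries weigh more in it. RefSeq promoter windows (GRCm38.p6, 250 bases before to 50 after a start) were placed where at least 4 of their CpGs matched the bases listed beside CpGs in the tables. No coordinates were converted.

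Tiles named in the text are the 12 members deepest in XaXa, the 5 with most CpGs, the 5 lowest and 5 highest in MEF, those nearest each limit and those called in a fit; other tiles were picked after their values were seen. Alternatives varied the read and CpG minimums, pooling, limits, tile borders, CpG sets and the test, and left out each library. Python 3.11.15, numpy 2.4.6, pandas 2.3.3, matplotlib 3.10.9, R 4.3.3 and limma 3.58.1 were used.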

Additional observations from a re-analysis of the deposited data

How the results depend on the processing

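The number of members changed with the read and CpG minimums of a tile, the level limits and the weighting. It also changed without XaXa 7, XaXa 8 or XO 6, and less with other choices. It was 85 with 5 reads per CpG, 94 without CpGs over 200 reads and 84 with tiles shifted by 500 bases. It was 160 with a minimum of 10 reads per tile, 50 with 50 reads, 58 with 5 CpGs per tile, 51 with equal weight of libraries, 165 with equal weight of CpGs, 8 with limits of 20% and 75%, and 937 with limits of 30% and 65%. Of the 165 only 41 were among the 104. Leaving out a library gave 52 to 1374 members, the lowest without XO 6 and the highest without XaXa 7; without XaXa 8 there were 426. On CpGs read in XaXa, XO and XY there were 96 members, 91 of them among the 104. Tiles described above that were not members on these CpGs include those in Galnt10 and Il3ra, the Thegl tile and chr4:113712001-113713000. There the Galnt10 tile was at 62.1% in pooled XO. In pooled XY the Thegl tile was at 67.3% and the chromosome 4 tile at 67.8%.

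The MEF median of members was 79.5%, 85.4% with tiles shifted by 500 bases, and 76.3% to 83.3% with a library left out. In the order 10 reads, 50 reads, 5 CpGs, equal weight of libraries, equal weight of CpGs, narrower and wider limits, 5 reads per CpG, CpGs read in XaXa, XO and XY, and CpGs over 200 reads left out, the SSEA1 positive median was 79.7%, 83.1%, 83.3%, 79.7%, 77.3%, 69.0%, 77.8%, 74.2%, 84.1% and 78.3%, against 81.5%. The SSEA1 negative median was 79.3%, 72.7%, 79.8%, 76.0%, 82.7%, 72.2%, 79.4%, 75%, 80.0% and 77.0%, against 78.1%, and 83.3% with shifted tiles. With a library left out they ranged from 73.9% to 83.6% and from 72.5% to 81.1%. The median CpGs per member were 8, and 7 with 10 reads, 11.5 with 50 reads, 12 with 5 CpGs, 6 with equal weight of libraries, 7 with either other pair of limits, 7 with 5 reads per CpG, 5 on CpGs read in XaXa, XO and XY, and 6.5 to 8 with a library left out. The cause of these shifts was not tested.

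Over all fitted tiles, 376 were called between XO and XY iPSC, with 0 by limma on log2 ratios (5720 at an unadjusted p under 0.05), 241 at 20 reads per library, 94 on CpGs read in all 9 libraries, 95 without CpGs over 200 reads, 50 with 2 groups in the fit and 21 to 373 with a library left out. Between XY iPSC and MEF 26509 were called, and 11003 to 28380 with a library left out, the lowest without MEF 5. The median in the left-out XaXa library was 36.4% in XaXa 7 and 31.2% in XaXa 8.

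No paired analysis was possible because XO and XY libraries share no replicate number and XY and MEF share only 1. With 2 XaXa libraries, most members at under 50 reads in XaXa 7, and XO pools carried by XO 6, depth limits which single tiles can be called low.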
